A study of Homo sapiens with 6 samples.

Results

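MEOX1 (mesenchyme homeobox 1) was examined in WM-266-4 melanoma cells that stably carried CT16 cDNA or an empty vector. The gene was selected on its signal difference between these same CT16 and control arrays, so its values are given as a description with no test. All probes annotated to MEOX1 were taken, which gave 3 of the 48803 probes on the array and 1 of 18665 named genes, and all 3 probes passed the detection filter described below.

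WM-266-4 is an established human melanoma cell line. In the CT16 group the cells were transfected with the plasmid pEXPR-IBA103 bearing a CT16 cDNA (cancer-testis antigen, now named PAGE5), which encodes a protein made mainly in testis and tumors. In the control group they were transfected with the same plasmid lacking an insert, and both groups were selected and kept under G418. RNA came from 3 separate cultures per group, and each culture was hybridised to 1 Illumina Sentrix Human-6 BeadChip array. The sources used here do not say whether the transfected cells of a group were a clone or a pool. If the cultures of a group go back to one transfected line, CT16 and any other difference between the lines cannot be told apart.

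MEOX1 encodes a homeodomain transcription factor of the antennapedia class. In the mouse, Meox1 and its paralog Meox2 act in the somites, where they are needed for the sclerotome and the vertebral column, and their proteins bind Pax1 and Pax3. In humans, recessive loss of MEOX1 causes Klippel-Feil syndrome, a fusion of cervical vertebrae. In endothelial cells the MEOX proteins are known to activate the cell cycle inhibitor genes CDKN1A and CDKN2A, and in the mouse heart Meox1 is known from fibroblasts activated by transforming growth factor beta.

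Each array gave 16200 to 18789 probes detected, which means a detection p under 0.01 against the negative control beads of that array. The third CT16 array stood apart: its probes lay a median of 0.754 log2 units from the other CT16 arrays, against 0.174 to 0.464 for the remaining arrays within their own groups. Where leaving it out changed the call of a named gene, the value without it is given too. Of the 11 melanocyte markers with a probe, 11 were detected, and their summed signal was 44336 to 49044 on CT16 arrays and 46008 to 50285 on control arrays. Of the transfected gene's 3 PAGE5 probes, ILMN_2363141 read 116.9, 119.7 and 170.9 on CT16 arrays and 80.7, 84.6 and 94.2 on control arrays, without overlap but also without passing the test (log2 difference 1.11 ± 0.37 SE, limma adjusted p = 0.582). Without the third CT16 array the difference was 0.71 (adjusted p = 0.160). ILMN_1744656 differed by 0.02 on the log2 scale (limma adjusted p = 0.994), and no array detected ILMN_1695992. The sources do not say where these probes lie relative to the cloned cDNA. Both ILMN_2363141 and ILMN_1744656 were detected on every control array, although the paper describes the control-plasmid cells as CT16 negative. The source of this control signal was not tested. The paper reports that qRT-PCR and Western blots verified CT16 expression in the CT16-transfected cells. Those assays were not analysed here.

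MEOX1 signal was present on every CT16 array and was not detected on any control array, with each of its 3 probes. The brightest probe, ILMN_1657145, had deposited signals of 1221, 1453 and 1362 on the CT16 arrays and 61.1, 58.6 and 59.6 on the control arrays. All CT16 values stood far above all control values, the lowest CT16 signal being 20.0 times the highest control signal. The mean was 1345 ± 117 in CT16 cells and 59.8 ± 1.22 in control cells (SD, n = 3 each), a ratio of mean signals of 22.5. In bulk RNA, more cells that express the gene and more MEOX1 RNA per cell cannot be told apart.

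The control signals of this probe sat at the level of the array background. The median negative control bead, read as the signal at a detection p of 0.5, was 55.2, 54.0 and 54.6 on the CT16 arrays and 56.8, 55.0 and 52.9 on the control arrays. Relative to it, ILMN_1657145 was 22.1, 26.9 and 24.9 times background in CT16 cells and 1.07, 1.07 and 1.13 times background in control cells. The detection p was 0 on all CT16 arrays and 0.276, 0.319 and 0.193 on the control arrays. On the first control array this corresponds to 199 of 720 negative controls at least as bright as the probe. The number of negative controls was inferred from the spacing of the detection p-values.

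After background correction and quantile normalization, the log2 signal of ILMN_1657145 was 10.24, 10.34 and 10.47 on CT16 arrays and 4.54, 4.50 and 4.58 on control arrays. The means were 10.35 ± 0.11 in CT16 cells and 4.54 ± 0.04 in control cells (SD, n = 3 each), a log2 difference of 5.81. Because the control value has only an upper bound, the difference is also given as a bound. For it, each control array was given either the value of the probe or that of the dimmest detected probe, whichever was larger, and the CT16 mean was divided by the mean of these (normalized log2 values). By this measure MEOX1 was at least 36.1-fold higher in CT16 cells. This bound holds only for the background correction used here and the offset added after it. The ratio of mean deposited signals, without background correction, was smaller at 22.5. The log2 difference of this probe was 4.50 without background correction and 4.55 with an offset of 50. The fold bounds of other probes and genes below depend on these settings as well.

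The probe ILMN_2414568 is annotated to a different RefSeq transcript of MEOX1 than the other probes. Its signals were 415.6, 558.5 and 414.4 on CT16 arrays and 73.6, 64.1 and 74.2 on control arrays. The groups did not overlap, and the lowest CT16 signal was 5.59 times the highest control signal. On the log2 scale the means were 8.76 ± 0.18 in CT16 cells and 4.95 ± 0.24 in control cells (SD, n = 3 each), a difference of 3.81 and a bound of at least 12.0-fold. This was the MEOX1 probe closest to the detection limit in control cells. Its detection p there was 0.0292, 0.154 and 0.0113, so the third control array lay just outside the limit of 0.01. By the same inference, 8 of 709 negative controls on that array were at least as bright.

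The dimmest probe, ILMN_1747948, shares its annotated transcript with ILMN_1657145. It had signals of 164.7, 136.5 and 129.6 on CT16 arrays and 56.6, 49.1 and 58.1 on control arrays. Its control values lay around the median background, with detection p of 0.511, 0.844 and 0.250. The log2 means were 6.75 ± 0.31 in CT16 cells and 4.42 ± 0.11 in control cells (SD, n = 3 each), a difference of 2.33 and a bound of at least 2.98-fold.

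The MEOX1 probes differed in how large a change they read but not in its direction. The ratio of mean signals was 22.5, 6.55 and 2.63 for ILMN_1657145, ILMN_2414568 and ILMN_1747948. A constant background remains in these deposited signals, and it pulls the ratio of a dim probe towards 1. Signals of different probes are not comparable as transcript levels, so no balance between MEOX1 transcripts is read from them. No CT16 array was highest or lowest with every probe. The deviations from the CT16 mean on the log2 scale were -0.11, -0.01 and 0.12 for ILMN_1657145, -0.21, 0.08 and 0.13 for ILMN_2414568, and 0.18, -0.36 and 0.18 for ILMN_1747948. Without the third CT16 array the differences were 5.78, 3.80 and 2.32.

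**Figure D1:**
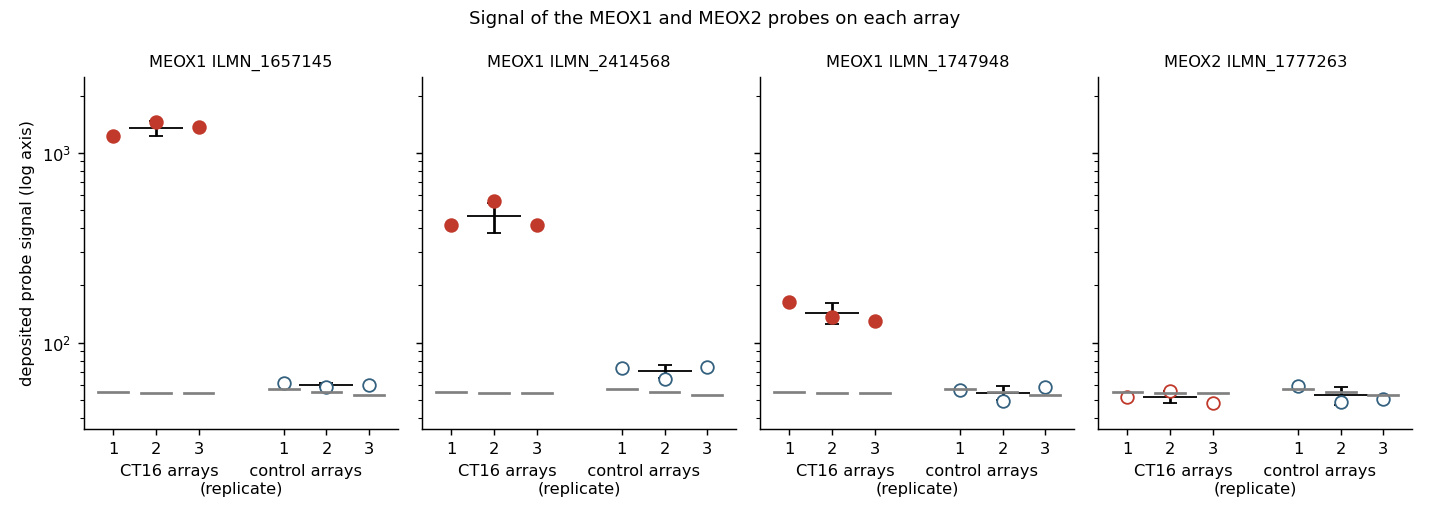
Deposited signal (log axis) of the 3 MEOX1 probes and the MEOX2 probe on each CT16 and control array, with filled points for detected and open points for undetected values, black bars for the mean ± SD (n = 3) and grey dashes for the median negative control bead. Each MEOX1 probe was detected on all CT16 arrays and on none of the control arrays, and MEOX2 lay at background on all 6 arrays.

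The size of the MEOX1 differences depended on how the background was treated, and the direction did not. Without any background correction the log2 differences were 4.50, 2.75 and 1.45 for ILMN_1657145, ILMN_2414568 and ILMN_1747948. With an offset of 0 in place of 16 added after the correction, they were 7.48, 4.83 and 4.12. Normalization mattered less: cyclic loess in place of quantile normalization gave 5.84, 3.78 and 2.24. Leaving out each array in turn gave 5.77 to 5.87 for ILMN_1657145, 3.64 to 3.92 for ILMN_2414568 and 2.24 to 2.46 for ILMN_1747948.

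**Figure D2:**
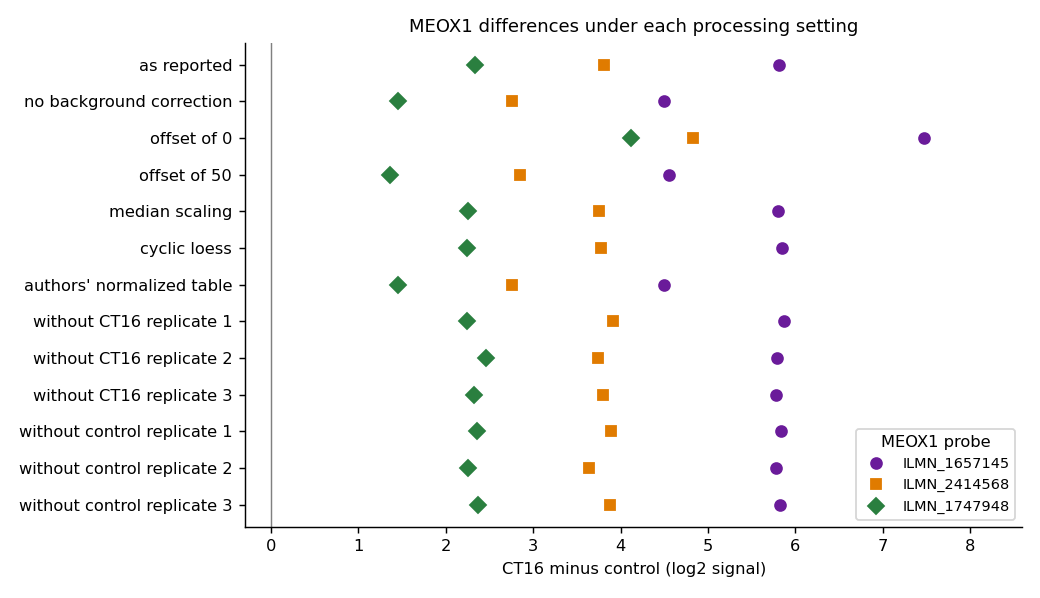
Log2 difference, CT16 minus control, of the 3 MEOX1 probes (marker shapes) under each processing setting (rows). All differences were positive and kept the same order of probes; the offset of 0 gave the largest values, 7.48 for ILMN_1657145, and the settings without background correction or with an offset of 50 gave the smallest.

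Probes that were detected on all CT16 arrays and no control array, as the MEOX1 probes were, numbered 135 (0.277% of all probes), and 110 of them named 103 genes. The reverse pattern was seen for 63 probes (0.129%). MEOX1 was the one named gene with 3 such probes. Genes with fewer than 3 probes could not reach this count. MEOX1 was also selected on its difference between these same arrays, so its place here is description only. ISLR, RTBDN, SAA1, SPMIP6 and TAFA3 each had 2 of their 3 probes in this pattern. All 5 were named for this pattern after their values were seen.

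MEOX2, the closest paralog of MEOX1, was not detected. Its probe ILMN_1777263 read 51.9, 55.4 and 47.9 on CT16 arrays and 59.1, 48.8 and 50.3 on control arrays, at or near the background of each array. MEOX1 was thus the detected member of the MEOX pair in CT16 cells.

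The remaining genes were tested with limma over all tested probes, with Benjamini-Hochberg adjustment and a threshold of 0.05. Of 11264 genes tested, 27 passed (0.24%), 18 higher in CT16 cells (0.16%) and 9 lower (0.0799%), and the median log2 difference over all genes was -0.03. In 1598 genes (14.2%) the CT16 arrays did not overlap the control arrays, and 722 genes (6.41%) had an unadjusted limma p under 0.05. MEOX1 is itself among the genes tested, and nothing is read from its place there. The tests below ask whether genes related to MEOX1 by family, by role or by position differed between CT16 and control cells.

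Homeobox genes other than MEOX1 did not pass the test. The homeobox genes considered numbered 149, of which 130 had a probe and 70 were tested, while 60 with a probe were detected on too few arrays. Among 27 tested HOX cluster genes, which specify position along the body axis, 0 passed. At an unadjusted p under 0.05 there was 1, against 6.41% of all genes tested. The median log2 difference was -0.04, with 13 differences above 0 and 14 below. The 2 brightest were HOXB7, with -0.29 ± 0.21 (SE, adjusted p = 0.959), and HOXC6, with -0.08 ± 0.20 (adjusted p = 0.978). The differences of the tested HOX genes ranged from -0.67 to 0.33.

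Of 43 tested homeobox genes outside the HOX clusters, 0 passed, with a median difference of -0.02. At an unadjusted limma p under 0.05 there were 8 of the 43, with 5 higher and 3 lower in CT16 cells. This is a larger share than the 6.41% of all genes tested. The brightest were PRRX1, a mesenchymal homeobox gene, with -0.88 ± 0.57 (adjusted p = 0.959), and MSX1, a homeobox gene of craniofacial and limb tissue, with 0.07 ± 0.22 (adjusted p = 0.979). A second PRRX1 probe, ILMN_1811851, gave -0.06 ± 0.20, so the probes of this gene disagree in size, and the brighter probe gave -0.19 ± 0.27 without the third CT16 array.

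PRRX2, the paralog of PRRX1, was the one other homeobox gene with a probe detected on all CT16 arrays and no control array, and was named after its values were seen. Its log2 signals were 6.47, 5.97 and 7.83 on CT16 arrays and 4.50, 4.44 and 4.55 on control arrays. The groups did not overlap, but the CT16 arrays spread widely, with the third array highest. The difference was 2.26 ± 0.45, at least 2.99-fold at the correction and offset used, and did not pass the test (adjusted p = 0.167). Without the third CT16 array it was 1.79 ± 0.20 and passed (adjusted p = 0.00894). OTX1, a homeobox gene of the developing forebrain, had the reverse pattern, with a difference of -0.82 ± 0.22 that did not pass (adjusted p = 0.391).

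Among genes of the somite and the PAX family, where mouse Meox1 acts, 15 of 35 genes with a probe were tested and 0 passed. Of the 15, 4 had an unadjusted limma p under 0.05, a larger share than the 6.41% of all genes tested. The median difference of the 15 was 0.15, with 9 above 0 and 6 below. PAX3, a regulator of the melanocyte lineage, was not detected on any array with any of its 4 probes. NKX3-2, known from the mouse as a target of the Meox proteins in the sclerotome, differed by -0.01 ± 0.27 (95% interval -0.65 to 0.62, adjusted p = 0.995). The brightest members were DLL3, a Notch ligand of segmentation, with -0.55 ± 0.23 (adjusted p = 0.772), and SOX9, a factor of cartilage and neural crest, with -0.68 ± 0.30 (adjusted p = 0.816), or -0.36 ± 0.17 without the third CT16 array.

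RIPPLY2, a repressor in somite segmentation, was detected on all control arrays and no CT16 array and was named after its values were seen. Its log2 signals were 4.94, 5.05 and 4.84 on CT16 arrays and 5.88, 5.82 and 5.94 on control arrays. The difference was -0.94 ± 0.20, with a bound from the detection limit of 1.63-fold, and did not pass the test (adjusted p = 0.197). It lay at the threshold without the third CT16 array (adjusted p = 0.0499).

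The TALE homeodomain proteins bind DNA together with HOX proteins. Of their 8 tested genes 0 passed and 0 had an unadjusted p under 0.05, with a median of -0.12. TGIF1, a TALE repressor of transforming growth factor beta signaling, differed by -0.03 ± 0.19 (adjusted p = 0.987), and PKNOX2 by -0.11 ± 0.27 (adjusted p = 0.975).

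Genes of cell cycle inhibitors did not pass either. The list holds CDKN1A and CDKN2A, known as MEOX targets in endothelial cells, and other inhibitors of cyclin-dependent kinases. Of its 6 tested members 0 passed, 0 had an unadjusted p under 0.05, and 3 lay above 0 and 3 below. The brightest CDKN1A probe, which reads the transcript of the inhibitor p21, differed by -0.02 ± 0.22 with a 95% interval of -0.53 to 0.49 (adjusted p = 0.991). A second CDKN1A probe, ILMN_1787212, gave 0.87 ± 0.28 (adjusted p = 0.535), so the CDKN1A probes disagree in size. CDKN2A was not detected on any array with any of its 3 probes. CDKN3, which encodes a phosphatase of cyclin-dependent kinases, differed by 0.12 ± 0.45 (adjusted p = 0.980), or 0.56 ± 0.30 without the third CT16 array.

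In the list of transforming growth factor beta and fibroblast activation genes, 24 of 35 genes with a probe were tested. Of these, 1 was higher and 1 lower in CT16 cells, against 0.16% and 0.0799% of all genes tested. Their median difference was -0.25, with 9 above 0 and 15 below, and 8 (33.3%) did not overlap between groups, against 14.2% of all genes tested. THY1, a surface glycoprotein used as a fibroblast marker, had log2 signals of 7.98, 8.15 and 8.88 on CT16 arrays and 4.94, 4.38 and 4.80 on control arrays. Like MEOX1 it was detected on all CT16 arrays and no control array. At the correction and offset used, THY1 was at least 8.91-fold higher in CT16 cells (log2 difference 3.63 ± 0.31, adjusted p = 0.0081). Without background correction its log2 difference was 2.53.

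TGFBI, a matrix protein induced by transforming growth factor beta, went the other way. Its log2 signals were 5.14, 5.37 and 5.06 on CT16 arrays and 7.50, 7.25 and 7.11 on control arrays, a difference of -2.10 ± 0.22 (adjusted p = 0.0179), and it was detected on 2 of the 3 CT16 arrays. The ligand gene TGFB1 was not detected on any array. COL1A2 and LUM, matrix genes of fibroblasts named after their values were seen, had differences of -1.81 ± 0.28 (adjusted p = 0.0877) and -1.87 ± 0.31 (adjusted p = 0.100), and both passed without the third CT16 array (adjusted p = 0.0278 and 0.0168).

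The 2 calls of this list were not stable to the choice of arrays. THY1 lost its call when the first CT16 array or any 1 control array was left out (adjusted p up to 0.0934), and TGFBI kept its call only without the third CT16 array (adjusted p up to 0.223 otherwise). Of 10 fibroblast markers 5 were detected, COL3A1 and POSTN were not detected on any array, and the summed marker signal was 2646 to 3762 in CT16 cells and 5814 to 8135 in control cells. COL1A2, LUM and THY1 are in both lists. The markers did not move together: COL1A2 and LUM had differences below 0, FAP had 0.05 ± 0.34 and PDGFRA 0.33 ± 0.35 (adjusted p = 0.987 and 0.959), and the median over the 5 was 0.05. COL1A2 had the highest mean signal of the 5, so it weighs most in the sum. The part of these markers in the MEOX1 difference was not tested.

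Of 12 tested Hedgehog pathway genes, a pathway that induces the sclerotome, 0 passed. Of the 12, 3 had an unadjusted limma p under 0.05, a larger share than the 6.41% of all genes tested. The median difference of the 12 was -0.28, with 3 above 0 and 9 below. GAS1, a Hedgehog coreceptor, differed by -0.37 ± 0.27 (adjusted p = 0.959), and the kinase gene STK36 by -0.20 ± 0.24 (adjusted p = 0.959). The ligand gene SHH was detected on all CT16 arrays and no control array (difference 0.70 ± 0.23, bound from the detection limit 1.30-fold, adjusted p = 0.570). The coreceptor gene CDON had the reverse pattern (-0.53 ± 0.20, adjusted p = 0.698). Both were named after their values were seen.

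Over all 7 lists, 133 of 229 genes with a probe were tested. Of these, 1 was higher and 1 lower in CT16 cells, against 0.16% and 0.0799% of all genes tested. At an unadjusted limma p under 0.05 there were 24, with 11 higher and 13 lower, a larger share than the 6.41% of all genes tested. The CT16 and control arrays did not overlap in 31 of the 133 genes (23.3%), against 14.2% of all genes tested. By list this share was 7.41% for HOX cluster genes, 23.3% for other homeobox genes and 33.3% for somite and PAX genes. It was 12.5% for TALE genes, 0% for cell cycle inhibitors, 33.3% for the transforming growth factor beta list and 41.7% for Hedgehog genes. Without the third CT16 array 7 of the 133 passed, 2 higher and 5 lower, against 141 of all 11264 genes (1.25%).

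**Figure D3:**
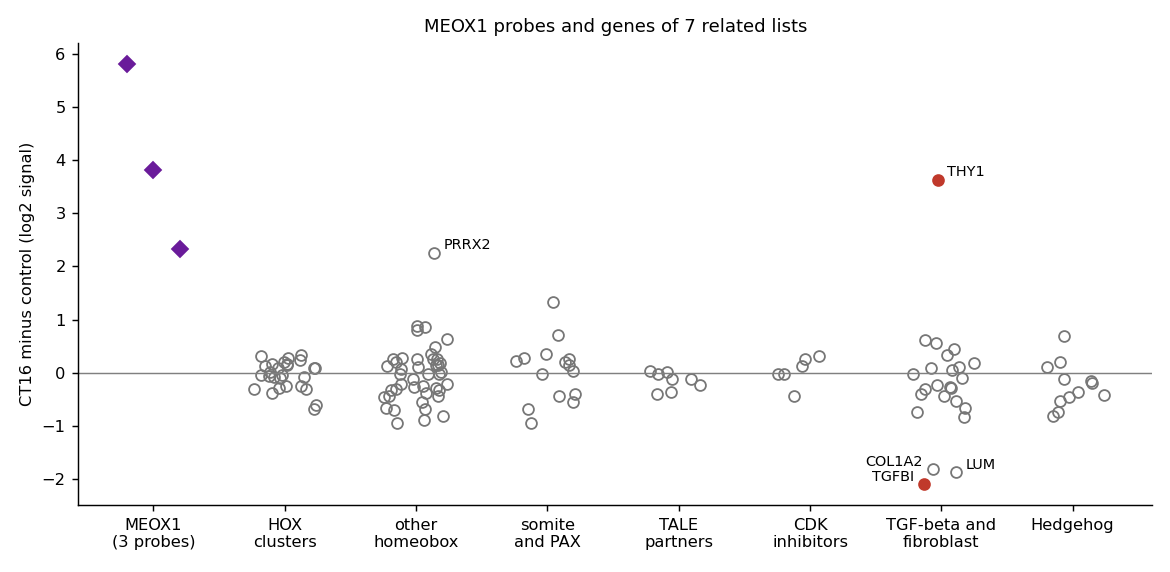
Log2 difference, CT16 minus control, of the 3 MEOX1 probes (diamonds) and of every tested gene in 7 related lists (circles, filled where the limma adjusted p passed 0.05). THY1 and TGFBI are filled, and PRRX2, at 2.26, did not pass.

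Among the genes beside MEOX1, those that could be tested did not pass. The 5 protein-coding genes on each side were taken from the order of a RefSeq gene table. Of these genes 9 had a probe and 4 were tested. None passed, and 0 had an unadjusted p under 0.05. ETV4, an ETS transcription factor next to MEOX1, had log2 signals of 10.00, 9.71 and 10.91 on CT16 arrays and 10.84, 10.02 and 9.81 on control arrays. These values overlapped fully, and the difference was -0.02 ± 0.40 (95% interval -0.96 to 0.91, adjusted p = 0.995), or -0.36 without the third CT16 array.

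On the other side, the phosphatase gene DUSP3 had 11.46, 11.46 and 10.50 on CT16 arrays and 11.65, 11.59 and 11.76 on control arrays. The groups did not overlap, but the difference of -0.53 ± 0.30 did not pass (95% interval -1.24 to 0.18, adjusted p = 0.959) and was -0.20 without the third CT16 array. DHX8, an RNA helicase of the spliceosome, differed by 0.14 ± 0.27 (95% interval -0.49 to 0.77, adjusted p = 0.968), and by -0.11 without that array. CD300LG, a surface receptor of endothelial cells, differed by -0.65 ± 0.52 (95% interval -1.87 to 0.57, adjusted p = 0.959), and by -0.24 without it. All 4 intervals included 0.

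The gene directly after MEOX1, SOST, which encodes the bone protein sclerostin, was not detected on any array with either of its probes. CCDC200, CFAP97D1 and MPP3 were not detected on any array either, so no difference can be read for these genes. TMEM106A was detected on 2 CT16 arrays and no control array, too few for the test.

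**Figure D4:**
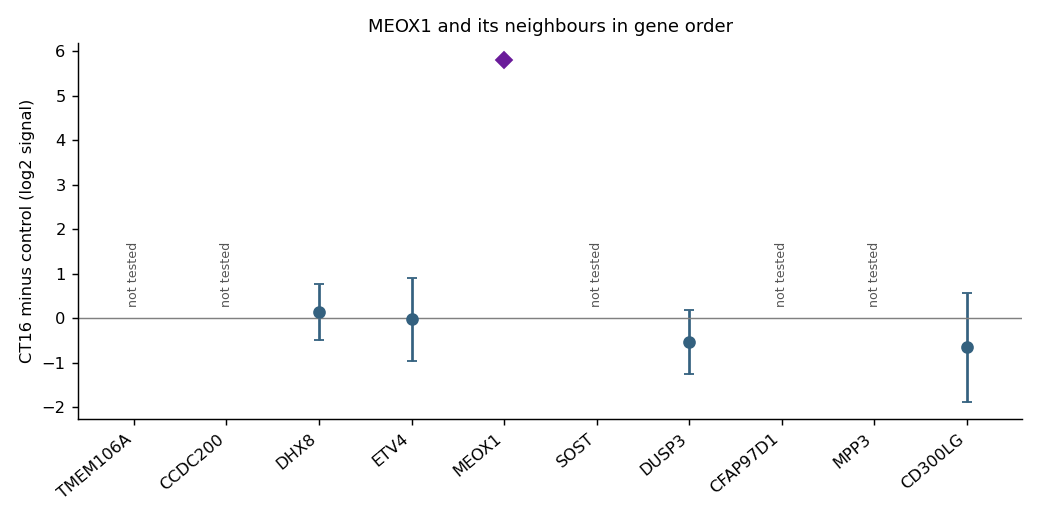
Log2 difference, CT16 minus control, of MEOX1 (diamond, brightest probe) and of its neighbours with a probe, in gene order, with 95% intervals where a neighbour was tested. The 4 tested neighbours lay between -0.65 and 0.14, and their intervals included 0.

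The genes most like MEOX1 were ranked by Pearson correlation of log2 signal with ILMN_1657145 over the 6 arrays, among 11263 genes. The arrays fall into the CT16 and control groups, so the measure mostly follows the difference between groups, and it is given as a description. Genes picked by it were picked for separating the groups on these same arrays. Their calls and the lack of overlap given below are therefore no further support. The highest were C3, the central complement component (r = 0.998), BASP1, a membrane-associated protein of nerve terminals (0.992), LCN2, an iron-siderophore carrier of the acute phase (0.992), PSPH, an enzyme of serine synthesis (0.991), and CHEK2, a DNA damage checkpoint kinase (0.991).

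LCN2 differed by 7.52 ± 0.41 (adjusted p = 0.00117) and was detected on 1 of the 3 control arrays. Its control values, like those of MEOX1, lay mostly at background, so the sizes of these differences are not ordered. C3 differed by 2.07 ± 0.20, at least 2.72-fold, and BASP1 by 2.19 ± 0.21, at least 3.96-fold (adjusted p = 0.0124 each). Both bounds hold at the correction and offset used. PSPH, with 0.54 ± 0.19, and CHEK2, with 0.81 ± 0.19, were also higher on each CT16 array than on each control array but did not pass (adjusted p = 0.628 and 0.294). LCN2 kept its call with any 1 array left out, while C3 and BASP1 lost theirs when any array but the third CT16 array was left out (adjusted p up to 0.220), and BASP1 also with median scaling (adjusted p = 0.0579).

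The lowest correlations were those of WFDC1, a secreted WAP-domain protein (r = -0.998), MGAM, a glucosidase of the gut (-0.996), HLA-DRA, the MHC class II alpha chain (-0.995), IL17D, a cytokine (-0.993), and DPPA4, a gene of pluripotent cells (-0.992). WFDC1 was close to a mirror image of MEOX1, detected on all control arrays and no CT16 array. At the correction and offset used, it was at least 12.8-fold lower in CT16 cells (-4.31 ± 0.22, adjusted p = 0.00109). HLA-DRA (-1.75 ± 0.20, adjusted p = 0.0280) and DPPA4 (-1.92 ± 0.21, adjusted p = 0.0231) also passed, while MGAM (-1.05 ± 0.19, adjusted p = 0.135) and IL17D (-1.11 ± 0.19, adjusted p = 0.122) did not. With 1 array left out, WFDC1 kept its call, and HLA-DRA and DPPA4 lost theirs in every case but that of the third CT16 array (adjusted p up to 0.300 and 0.224). DPPA4 also lost its call without background correction and in the authors' normalized values (adjusted p = 0.0709 each), and with an offset of 50 (adjusted p = 0.0608). HLA-DRA lost its call with detection on all 6 arrays (adjusted p = 0.0554). Without the third CT16 array MGAM and IL17D passed (adjusted p = 0.0275 and 0.0271).

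**Figure D5:**
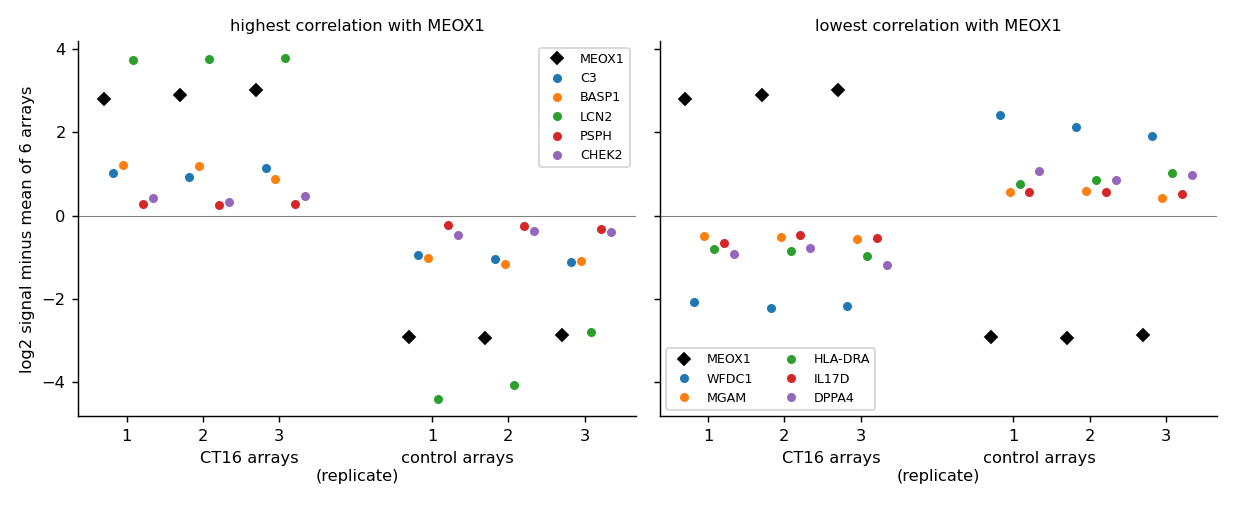
Log2 signal minus the mean of all 6 arrays for MEOX1 (ILMN_1657145, diamonds) and for the 5 genes of highest (left panel) and lowest (right panel) Pearson correlation with it, on each CT16 and control array. The points of one array are spread sideways for legibility. On each side the CT16 and control arrays did not overlap for any of the genes shown, which largely follows from choosing them by this correlation. Of all genes tested, 14.2% did not overlap.

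The array measured mixed RNA of a culture, so markers of other cell types were read as well, and none of those in the endothelial, muscle, immune and epithelial lists passed the test (limma). The endothelial list had 6 of 8 genes detected, with CDH5 and CLDN5 not detected on any array, and summed to 785 to 943 in CT16 cells and 765 to 823 in control cells. Of its members, TIE1 differed by 0.82 ± 0.33 and PECAM1 by 0.56 ± 0.22, both above 0 (adjusted p = 0.749 and 0.721), and TEK by -0.59 ± 0.23 (adjusted p = 0.721). At an unadjusted p under 0.05 there were 3 in this list, against 6.41% of all genes tested.

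The immune list had 4 of 9 genes detected, all with differences above 0, and PTPRC, CD3E, CD3D and NKG7 were not detected on any array. FCER1G differed by 1.41 ± 0.35 (adjusted p = 0.329) and CD68 by 0.85 ± 0.24 (adjusted p = 0.433). These 2 had an unadjusted p under 0.05, against 6.41% of all genes tested. The list summed to 1874 to 2362 in CT16 cells and 1520 to 1741 in control cells.

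The muscle list had 3 of 9 genes detected, with MYH11, DES, MYOD1 and ACTA1 not detected on any array, and summed to 8348 to 12519 in CT16 cells and 8556 to 9280 in control cells. ACTA2, the brightest of its members, differed by 0.10 ± 0.22 (adjusted p = 0.971). In this list 1 member had an unadjusted p under 0.05, against 6.41% of all genes tested. The epithelial list had 3 of 7 genes detected and summed to 439 to 512 in CT16 cells and 499 to 544 in control cells. It had 1 member at an unadjusted p under 0.05, against the same 6.41%. CDH1, named after its values were seen, differed by -1.12 ± 0.21 and did not pass (adjusted p = 0.142). It passed without the third CT16 array, with a difference of -1.19 ± 0.19 (adjusted p = 0.0328). The part of these lists in the MEOX1 difference was not tested.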

How the data were processed

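RNA of 3 CT16 and 3 control cultures was labelled and read on 1-colour Illumina arrays, and groups and replicate numbers came from the sample descriptions. The authors deposited probe intensity values that were neither normalized nor background-subtracted, in 48804 rows, of which 1 repeated an identifier and was averaged. A deposited detection p-value sets each probe against the negative control beads of its array, by a program not given in the sources used here. Quantile normalized intensity values were deposited as well, and 99.998% of them lay within 1% of a quantile normalization computed here.

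The log2 signals were obtained in R 4.3.3 with limma 3.58.1: background correction by nec with controls inferred from the detection p, an offset of 16 and quantile normalization. Probes detected on at least 3 of 6 arrays were fitted with lmFit and eBayes (two-sided tests), with Benjamini-Hochberg adjustment over all 18156 tested probes. Each gene was read by its brightest tested probe. The limma fit was tested on simulated data first.

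Probes were named from the platform annotation, in which 27578 probes had 1 symbol, 13 several and 21212 none listed. A RefSeq table of assembly GRCh38.p14 served for names and gene order only, since no source used here gives the genome build of the probes. The MEOX1 members and all 7 gene lists and 6 marker lists were chosen with earlier results of these data known. The genes named were MEOX1, MEOX2, PAGE5, the 5 genes of highest and the 5 of lowest correlation with MEOX1, the measured neighbours, and in each list up to 4 members that passed, largest first, or otherwise the 2 brightest. Other members were named after their values were seen. Alternatives changed the background correction, offset, normalization, filter, variance model, probe choice, arrays and measure of likeness. With 3 cultures per group, p-values measure the spread between these cultures only. One neighbouring gene is not reported here.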

Additional observations from a re-analysis of the deposited data

How the results depend on the processing

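The MEOX1 differences kept their direction under each setting that gave a value. For ILMN_1657145, ILMN_2414568 and ILMN_1747948 they were 4.50, 2.75 and 1.45 both without background correction and in the authors' normalized values, 7.48, 4.83 and 4.12 with an offset of 0, and 4.55, 2.85 and 1.36 with an offset of 50. Leaving out 1 array gave 5.77 to 5.87, 3.64 to 3.92 and 2.24 to 2.46. The filter for detection on all 6 arrays gave no MEOX1 value, because it removes probes that the control arrays did not detect, and the mean of a gene's probes was not computed for MEOX1, which is given by probe.

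The count of 27 genes past the threshold became 4 with detection on all 6 arrays and 3 to 141 with 1 array left out (141 without the third CT16 array, 3 without the first). It was 18 without background correction and in the authors' values, with 14 higher and 4 lower. The sample descriptions do not say whether same-numbered cultures were paired. Deviations of same-numbered arrays from their group means correlated at -0.615, 0.611 and -0.584. With 3 arrays per group these deviations depend on each other, so they cannot decide the question. With the replicate number as a block 3 genes passed, and the block left 0 list genes. List genes past the threshold numbered 0 with detection on all 6 arrays and 0 to 7 with 1 array left out. Neighbours numbered 0 throughout. Of the 10 genes most like MEOX1, Spearman correlation kept 1, ILMN_2414568 kept 4 and ILMN_1747948 kept 2. ETV4, with a difference near 0, was 0.027 with cyclic loess and 0.031 as the mean of its probes, and -0.36 to 0.29 with 1 array left out. DHX8 ranged from -0.11 (without the third CT16 array) to 0.28. The cause of these changes was not tested. Of the other values of single genes, 230 kept their direction and side of the threshold, 40 lost and 4 gained a call. The small number of arrays and the background level of MEOX1 in control cells limit how well the size of its difference is known.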
